A study of Mus musculus with 2 samples.

Results

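Cells of the upper hair follicle that carry keratin 79 transcripts were described here in back skin of 1 control and 1 miR-205-induced mouse. The cells were chosen by their own counts of UMIs (unique molecular identifiers, 1 for each captured RNA molecule). A cell was taken when its UMIs of Krt79, Defb6 and Cst6 summed to at least 20, those of Krt1 and Krt10 to under 100, and those of the sebaceous genes Awat2, Elovl3, Far2, Cidea and Pparg to under 5. A cell also had to show over 200 but under 5000 genes, and under 10% of its UMIs could be mitochondrial. These criteria took 1109 of 7564 cells, 592 of 3936 in the control library and 517 of 3628 in the induced library. Because the counts of these genes picked the cells, their levels are given as a description, as is every difference between these cells and other cells. Klk7, another marker of the same region, was not used to choose them.

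Both mice were at postnatal day 53, were given as strain C57BL/6, were littermates of matched gender and carried a Krt14-H2B-GFP allele, which lights up the nuclei of keratin 14 cells. The induced mouse also carried a miR-205 transgene under a tetracycline-responsive promoter, made by injection into FVB and switched on in keratin 14 cells by Krt14-rtTA, and was fed doxycycline chow for 4 days. The control mouse is listed as untreated in its own entry, whereas the protocol has both mice fed doxycycline, so the control's exposure to the drug is uncertain, and neither its entry nor the methods say whether it carried any transgene other than that allele. The level of miR-205 itself was not analysed here. Cells were sorted to a fixed ratio of epidermal, follicle and dermal cells, so the share of a population within a library was set in part by the sort. With 1 mouse and 1 library for each condition there was no replicate check and no test. Intervals are 95% intervals that cover counting error only, exact unless another method is named, and the mouse, the library and the induction cannot be told apart. The libraries held 4545 and 4264 barcodes with 55465594 and 49733560 UMIs, control before induced. The chosen cells held 8389130 and 7797089 UMIs, with a median of 13428.5 and 14471 for each cell. The libraries shared 11 barcodes, and 0 of these were among the chosen cells.

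The upper follicle, or infundibulum and the isthmus below it, is the funnel through which the hair and the sebum reach the skin surface. Its inner cells are known to leave the basal layer, switch on keratin 79 and shed into the canal, by a program that shares many genes with the epidermis but uses little of the epidermal keratins Krt1 and Krt10. Krt79 encodes that keratin, Defb6 a beta-defensin that acts as an antimicrobial peptide, Cst6 the cystatin M/E that restrains lysosomal cysteine proteases in the barrier, and Klk7 a chymotrypsin-like kallikrein that cuts the junctions between corneocytes. MiR-205 is a microRNA abundant in skin epithelium that lowers its targets by pairing of its seed with their transcripts.

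The sequence that was induced and short stretches of 3 of the marker promoters are shown to place the genes. RefSeq sequences and positions are on build GRCm38.p6, the patch release of mm10, which the submitters' processing notes name. Mature miR-205-5p lies at chr1:193507503-193507524 on the minus strand, and its seed, bases 2 to 8, is in capitals.
miR-205-5p: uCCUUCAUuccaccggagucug
Krt79 lies on chromosome 15 from 101929332 to 101940324, Defb6 on chromosome 8 from 19225478 to 19228209, Cst6 on chromosome 19 from 5344705 to 5349574 and Klk7 on chromosome 7 from 43811294 to 43816387, and all are protein coding. The window from 250 bases before to 50 bases after the start was searched on both strands for AGATAA, a core bound by GATA factors, since Gata6 is a marker of this region. The letters were present once in each of the promoters of Krt79, Defb6 and Klk7, and in 3672 of 32851 promoters of the same length, or 11.2%. The Cst6 promoter was not analysed here. Of 12 promoters of the upper follicle list used below, 5 held them, and these 3 were among the 5. Windows of 30 bases around the match follow, with AGATAA in capitals. The Krt79 window is chr15:101940277-101940306 on the minus strand, the Defb6 window chr8:19225351-19225380 on the plus strand and the Klk7 window chr7:43811311-43811340 on the plus strand.
Krt79: ccagctgggaaaAGATAAaaaggtgtttgg
Defb6: ccctcactagagAGATAAggtgctctgtgt
Klk7: ctcagggatttcAGATAAccctatgctcaa
The match began 115 bases before the start of Defb6 and 30 and 29 bases after the starts of Krt79 and Klk7. A match is a run of letters and not evidence of binding. The other motifs searched were not shared by the 3 promoters. TGANTCA, the AP-1 core, was in none of these 3 promoters and in 7.81% of all promoters. TATAAA, the TATA box, was in none of the 3 and in 13.6% of all. CCGCCC, the GC box, was in the Klk7 promoter but not in those of Krt79 and Defb6, and in 35.7% of all.

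Several markers that the choice did not use were higher than in other keratinocytes, but not all were. Levels are given as CPM, the summed UMIs of a gene scaled to all UMIs of that population in one library. Klk7 stood at 1179 CPM in the control and 1604 CPM in the induced library, against 15.7 and 24.6 CPM in other keratinocytes. The other keratinocytes were 1906 and 1358 cells with at least 100 UMIs of Krt5 and Krt14 and a sum under 20 over the choosing genes, within the same Krt1, Krt10 and sebaceous limits. Krt17, a keratin of the outer sheath and upper follicle, was at 10590 and 9047 CPM in the chosen cells and at 2639 and 2601 CPM in other keratinocytes. Plet1, a marker of the junctional zone, was at 5446 and 5823 CPM against 1856 and 1807 CPM. Gata6, a transcription factor of the sebaceous duct and upper follicle, was at 66.2 and 86.3 CPM against 14.1 and 17.3 CPM. Krt14, of the basal layer, went the other way, at 3817 and 3653 CPM against 14130 and 12871 CPM. The other keratinocytes were themselves chosen on Krt5 and Krt14, so this difference was set in part by that rule. Both libraries gave the same order in each of these 5 genes. Lgr6, a receptor that marks stem cells of the isthmus, was lower in the chosen cells, at 8.11 and 7.31 CPM against 23.7 and 23.2 CPM, and was seen in 3.15% and 3.82% of cells thinned to 5000 UMIs each, against 10.5% and 9.32% of other keratinocytes.

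**Figure D1:**
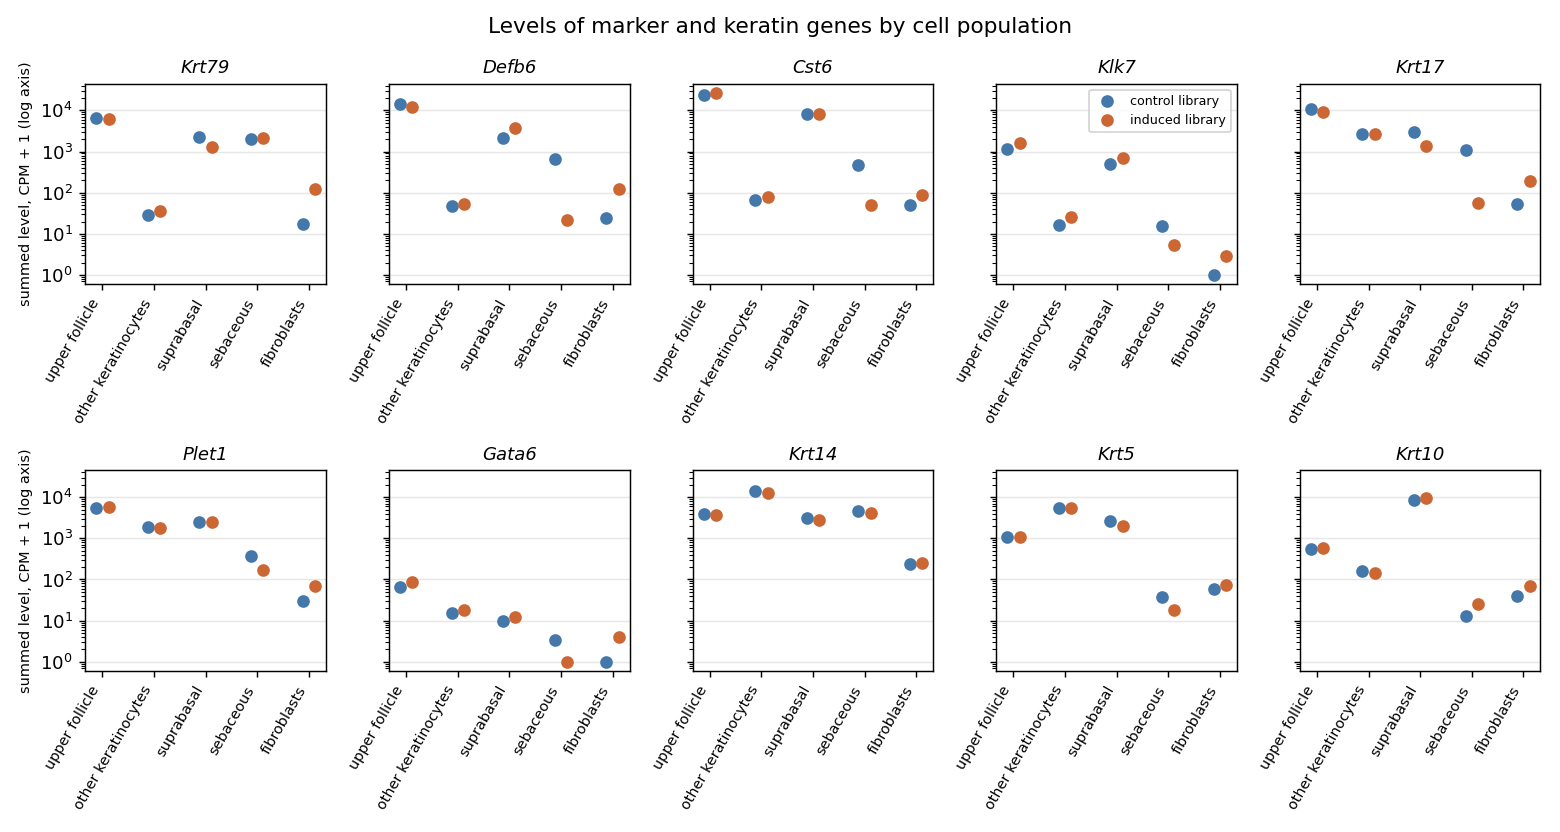
Summed level of 10 genes (CPM + 1, log axis) in 5 cell populations, with 1 point for each library. Upper follicle cells hold 1179 and 1604 CPM of Klk7 and 66.2 and 86.3 CPM of Gata6, above every other population shown, while Krt79 is also above 1000 CPM in suprabasal and sebaceous cells.

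Krt79 was not particular to the chosen cells. The 16 and 25 sebaceous cells, with at least 20 UMIs of the sebaceous genes, held 2039 and 2134 CPM of Krt79, against 6697 and 6132 CPM in the chosen cells, and their Klk7 was at 14.6 and 4.41 CPM. Suprabasal cells, those with at least 100 UMIs of Krt1 and Krt10, numbered 124 and 120 and held 2288 and 1313 CPM of Krt79. The median suprabasal cell of the control library had 0 UMIs of Krt79 and the highest had 976, so a few cells carried this level. In the 104 and 132 fibroblasts, which had at least 50 UMIs of Col1a1, Col1a2 and Col3a1 and more of these than of Krt5 and Krt14, and which should lack Krt79, it was at 16.6 and 123 CPM. The median fibroblast had 0 UMIs of Krt79 in both libraries and the highest had 2 in the control and 91 in the induced library, where 3 cells met both the rule for fibroblasts and that for the chosen cells. The share of cells with a Klk7 UMI after each cell was thinned to 5000 UMIs was 44.9% (40.8 to 49.1) of 572 control and 48.0% (43.5 to 52.5) of 498 induced chosen cells. Before thinning it was 50.3% and 54.9%. In fibroblasts it was 0 of 98 and 1 of 129 cells, where a count of 0 of 98 leaves room for a share of up to 3.69%. Fibroblasts had a median depth of 12584 and 11830 UMIs, near that of the chosen cells.

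The cut-offs passed through thinly filled ranges. In the control library 37 cells had a sum of 15 to 19 UMIs over the choosing genes and were left out, and 21 had 20 to 24 and were taken. The induced library had 41 and 20 such cells. At the Krt1 and Krt10 limit, 7 control and 10 induced cells lay just inside at 80 to 99 UMIs, and 9 and 10 lay just outside, at 100 or more but under 120. At the sebaceous limit, 3 and 2 cells had 3 or 4 UMIs and 2 and 1 cells had 5 or 6. Most chosen cells lay far inside. The sum was 100 or more but under 500 UMIs in 224 control and 184 induced cells, and at least 500 in 194 and 185.

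Single cells differed widely in these genes. Krt79 ran from 0 to 811 UMIs for each cell in the control library with a median of 64, and a UMI was seen in 94.8% of cells before thinning. Defb6 had a median of 109 and a highest value of 2267 UMIs, with a UMI in 98.8% of cells before thinning. Cst6 reached the highest count of the 4 genes, with a lower quartile of 3.75, a median of 40 and a highest value of 5134 UMIs. Klk7 had a lower quartile of 0, a median of 1 and an upper quartile of 17 UMIs, and reached 257. In the induced library the medians were 60, 108, 54 and 1 UMIs for Krt79, Defb6, Cst6 and Klk7.

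Against other keratinocytes, the chosen cells held more of the genes of terminal differentiation and less of the basal genes. A gene was counted when it was at least 4-fold different in the same direction in both libraries. Of 10303 genes with at least 50 UMIs over both populations in each library, 243 were higher (2.36%) and 329 were lower (3.19%), and the median log2 ratio over all of them was -0.12. The gene lists below were chosen with earlier results of these data known, so their counts and medians are a description. Of 12 measured genes of the upper follicle list, 10 were higher and 0 lower, with a median log2 ratio of 4.00, and 3 of the 10 were the choosing genes themselves. Beyond them and Klk7, the list's higher genes included Nebl (log2 ratio 3.52 in control and 3.61 in induced), Atp6v1c2 (3.60 and 3.44) and Teddm3 (8.55 and 7.71).

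Proteases and their inhibitors come next in role. Of 17 kallikreins and other serine proteases, 9 were higher and 0 lower, with a median log2 ratio of 2.71. Klk5, a trypsin-like kallikrein that activates Klk7, stood at 53.5 and 48.9 CPM against 1.17 and 0.764 CPM in other keratinocytes. Klk6 was at 50.8 and 111 CPM against 0.354 and 0.573 CPM, with 54.5% of its control UMIs in 5 cells. Prss8, the channel-activating protease prostasin, had log2 ratios of 3.35 and 3.01. Klk10 was at 211 and 174 CPM, but 5 cells held 79.5% of its control UMIs. On the side of the inhibitors, 4 of 16 were higher and 1, Wfdc3, lower. One of the higher genes was Cst6, which chose the cells, and another, Elf3, is a transcription factor that the list holds though it is no inhibitor, so Spink5 and Cstb were the rest. Spink5, which blocks the kallikreins, was at 553 and 445 CPM against 25.5 and 23.4 CPM in other keratinocytes. Cstb, a cytosolic cystatin, was at 3954 and 4066 CPM against 800 and 730 CPM.

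The cornified envelope list, the proteins that replace the membrane of dying keratinocytes, had 10 of 20 genes higher and 2 lower, with a median log2 ratio of 2.23. Sprr1a, a cross-bridging protein of the envelope, was at 11281 and 10715 CPM against 350 and 386 CPM. Corneodesmosin, Cdsn, the adhesive of corneocytes, was at 233 and 198.5 CPM against 3.44 and 0.955 CPM. Tgm1, the cross-linking transglutaminase, had log2 ratios of 5.00 and 4.41, and Ivl, involucrin, 3.67 and 2.14. Tgm3 and Tgm5 were lower. Flg2, Crct1 and Cnfn were among the higher genes, but 5 cells held 99.1%, 58.0% and 50.2% of their control UMIs. Of 23 barrier lipid genes, 6 were higher and 0 lower, with a median of 0.46. They included Alox12e (4.64 and 4.86), a lipoxygenase, Elovl4 (2.92 and 3.20), which lengthens the fatty acids of ceramides, and Sult2b1 (3.27 and 3.50), which sulphates cholesterol. The suprabasal list gave 5 higher genes of 13 and 1 lower. Dsc1, a desmosomal cadherin, Krtdap, Sbsn, Skint3 and Calm4 were higher, and Krt1, which the choice limited, was the lower one.

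Host defence genes followed. Of 22 measured antimicrobial and alarm genes, 7 were higher and 0 lower, with a median log2 ratio of 0.83. Besides Defb6 they were Defb1 at 789 and 798 CPM against 50.9 and 55.5 CPM, Defb14, the peptidoglycan recognition proteins Pglyrp3 (5.81 and 5.05) and Pglyrp4 (4.82 and 3.83), the interleukin 36 antagonist Il1f5 and the chemokine Ccl20. For Defb14 in the control library and for Il1f5 and Ccl20 in the induced library, 5 cells held over 50% of the UMIs. Among 41 transcription factors of differentiation, 6 were higher and 1 lower. Grhl3, a driver of barrier genes, was at 159 and 174 CPM against 6.30 and 5.97 CPM, and Prdm1, Zfp750, Ehf and Elf3 were higher as well as Gata6. Gata3 was lower, at 40.9 and 42.3 CPM against 208 and 182 CPM. Of 16 measured retinoid genes, 3 were higher and 0 lower, with a median log2 ratio of 0.09. The higher ones included Crabp2 (5.25 and 5.25), which carries retinoic acid, and Rarres1 (3.15 and 2.96). Ligands of the EGF receptor split, with Areg (2.20 and 2.43), Ereg (4.30 and 4.50) and Btc higher and Epgn (-4.62 and -3.69) lower, and 5 cells held 70.9% of the control UMIs of Btc.

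Of 16 basal genes, 0 were higher and 7 lower, with a median log2 ratio of -1.94. Krt5 stood at 1052 and 1064 CPM against 5326 and 5440 CPM, but Krt5 and Krt14, both on this list, chose the other keratinocytes. The hemidesmosome genes Col17a1 (-2.30 and -2.27) and Itgb4 (-2.53 and -2.59), the integrins Itga2 (-4.24 and -3.39) and Itga3, the laminin chain Lama3 and Bcam made up the rest. Of the 6 genes of the isthmus and junctional zone list, which holds Plet1 and Lgr6, 0 were 4-fold higher and 1, Gli1, was lower, with a median of -1.17. Its member Lrig1, which marks stem cells of the junctional zone, was at 38.1 and 41.2 CPM against 14.7 and 13.99 CPM. Of 14 bulge and hair germ genes 5 were lower, Cd34, Krt24, Lgr5, Postn and Npnt. Of 24 cell cycle genes 1 was higher and 6 lower. Mki67, a gene of dividing cells, had a UMI in 5 of 572 and 6 of 498 thinned cells, or 0.874% and 1.20%, against 5.63% and 5.25% of other keratinocytes. In the chosen cells 5 cells held 83.0% and 92.3% of its UMIs.

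The 20 genes with the highest ratios over other keratinocytes took in the choosing genes together with Gsdma, a pore-forming gasdermin (98.9 and 87.2 CPM), Ptk6, a tyrosine kinase of differentiating epithelia (47.3 and 57.7 CPM), Slc46a2 (44.1 and 55.7 CPM), a solute transporter, Endou, an endoribonuclease (56.6 and 52.3 CPM) and Slc5a8, a monocarboxylate transporter (60.1 and 33.9 CPM). The others were Gm28856, Teddm3, Psors1c2, Klk6, Cdsn, Ang2, Gm14137, Skint2, Dsc1, Lypd5, 2310046K23Rik and Nkpd1. Among the 10 lowest, the matrix metalloproteinases Mmp10 and Mmp13 were at 0 UMIs in the chosen cells of both libraries, and Wnt3, a Wnt ligand, was at 2.26 and 0.898 CPM against 62.2 and 48.1 CPM.

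**Figure D2:**
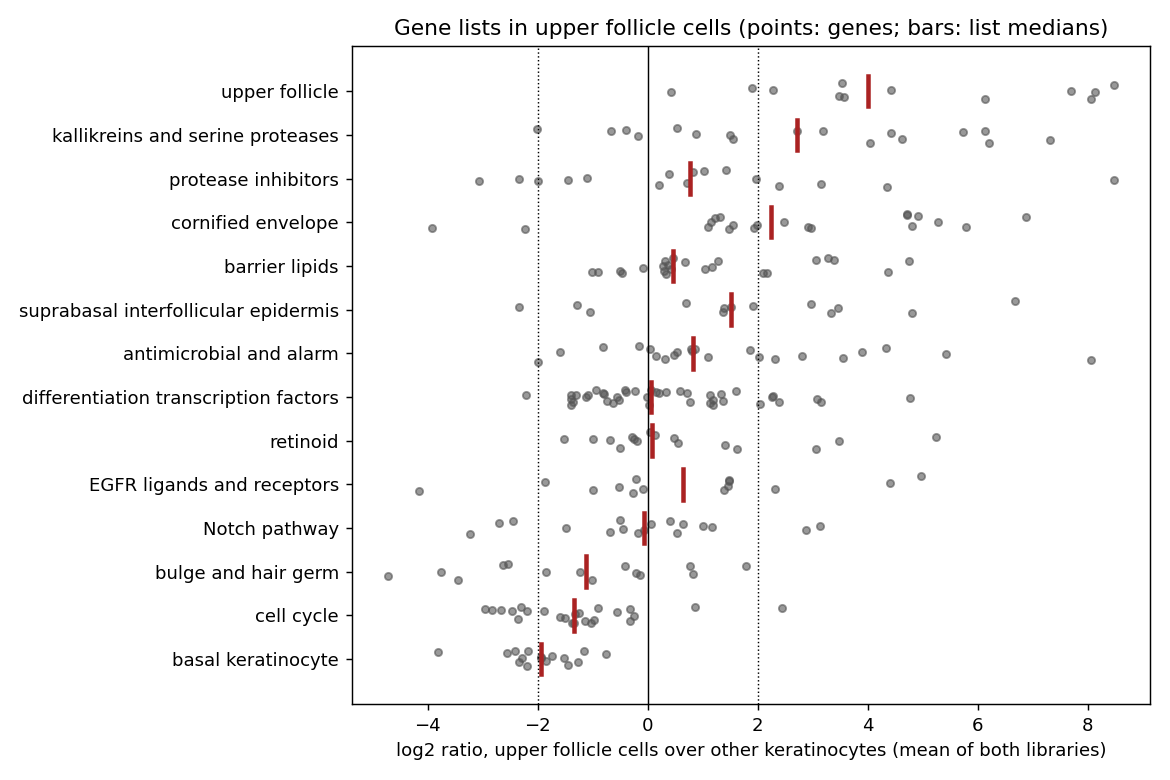
Log2 ratio of upper follicle cells over other keratinocytes for each measured gene of 14 lists (points, mean of both libraries) with list medians (bars) and dotted lines at 4-fold. The upper follicle list has a median of 4.00, the kallikreins 2.71, and the basal genes -1.94.

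Against suprabasal cells, the nearest differentiated population, 149 of 7969 genes were 4-fold higher (1.87%) and 69 lower (0.866%), with a median of 0.07 over all. Of 12 upper follicle genes 2 were higher, among them Gata6 (2.85 and 2.91), and 0 were lower. Kallikreins gave 0 calls either way among 16, and cornified envelope genes 0 higher and 2 lower among 22, so these lists did not separate the populations by this rule. Suprabasal cells were not limited on the choosing genes, and a few of them carried much of these levels. The upper quartile of Klk7 was 0 UMIs in suprabasal cells of both libraries while the highest cells had 406 and 383, and Cst6 had medians of 3 and 4 UMIs with highest values of 5333 and 2898. The suprabasal list had 4 of 13 lower, which were Krt1 and Krt10, on which the cells were divided, with the metallothionein Mt4 (-7.70 and -7.63) and Chit1. Cebpd (2.47 and 2.38), Runx1 (2.55 and 2.73) and Id2 (2.66 and 3.03), transcription regulators, were higher, and Gata3 (-3.25 and -2.95) was lower. The neutrophil-attracting chemokines Cxcl1 and Cxcl2 were also higher, with log2 ratios of 3.76 and 4.81 and of 5.01 and 5.99, and 5 cells held 55.4% and 65.6% of the Cxcl1 UMIs and 92.8% and 92.2% of the Cxcl2 UMIs. Against the few sebaceous cells, 764 of 7593 genes were higher (10.1%) and 358 lower (4.71%).

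The chosen cells were not uniform. Each was placed by which choosing gene gave it the most UMIs, each UMI being the end of 1 molecule with no scaling for gene length. Defb6 led in 297 control cells (50.2%) and 237 induced cells (45.8%), Cst6 in 180 (30.4%) and 195 (37.7%), and Krt79 in 115 (19.4%) and 85 (16.4%). These groups are ranges and not types. The leading gene had less than 1.5 times the UMIs of the next in 57 of the 180 control cells led by Cst6 and in 76 of the 297 led by Defb6. The median sum of the choosing genes was 1035.5 and 1221 UMIs in cells led by Cst6, 174 and 121 in those led by Defb6 and 146 and 157 in those led by Krt79, while the median depth was 13808.5, 12797 and 14324 UMIs in the control library.

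**Figure D3:**
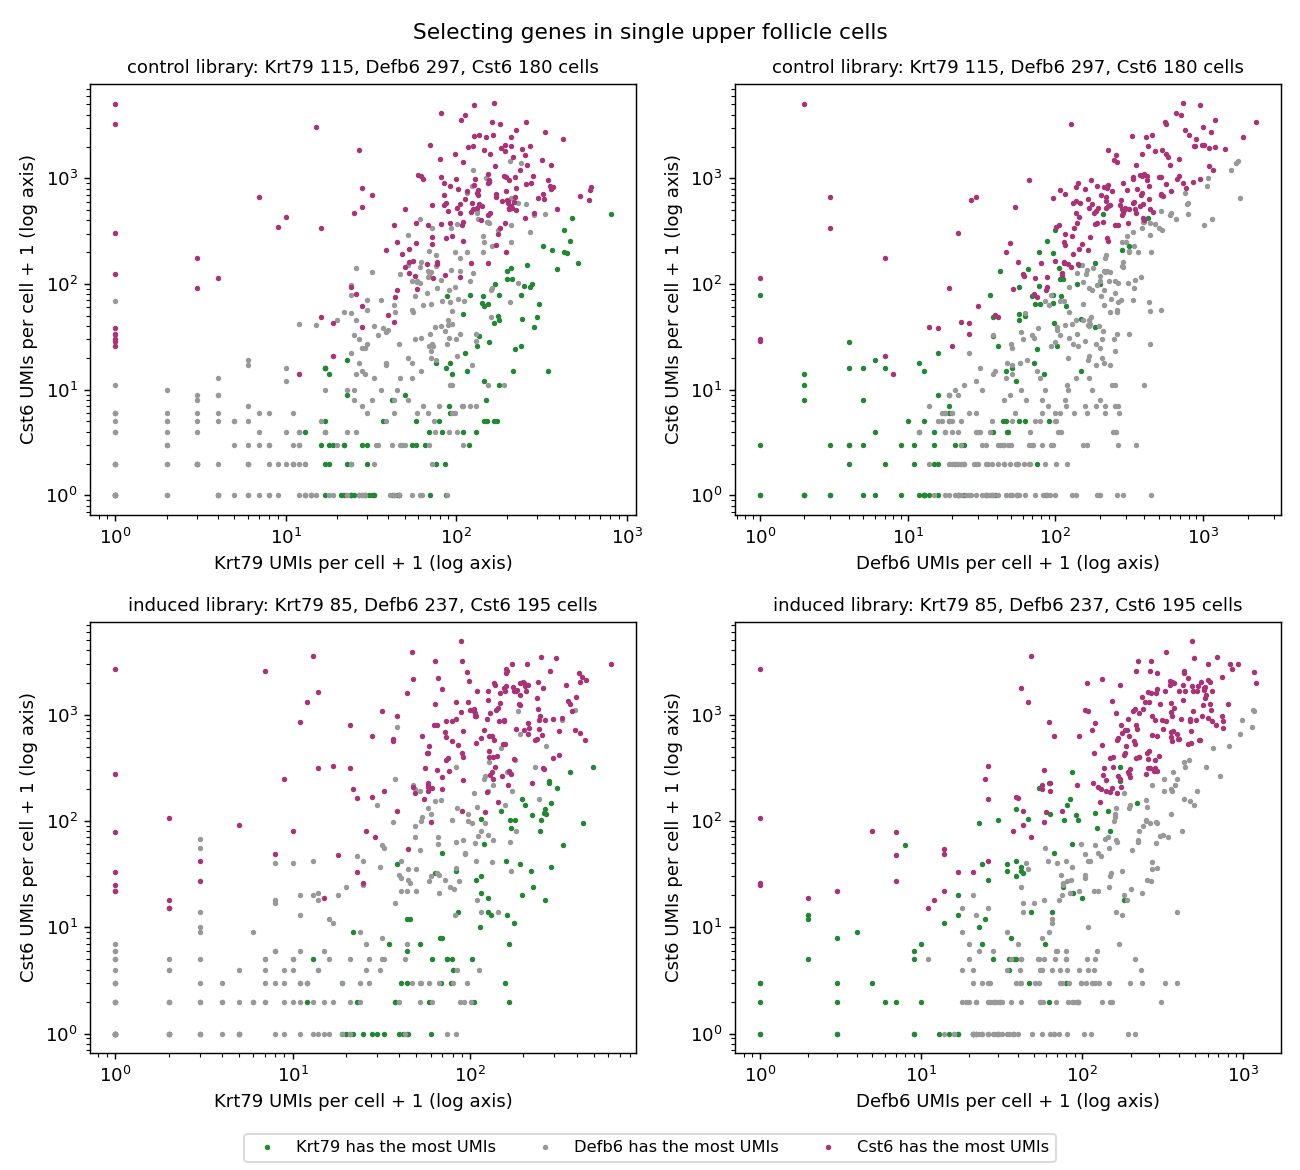
UMIs per cell (+ 1, log axes) of Cst6 against Krt79 and against Defb6 in the 592 control and 517 induced cells, coloured by the gene with the most UMIs. Cst6 spans from 0 to 5134 UMIs in the control library and is higher in cells with more of the other 2 genes.

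Several late differentiation genes were higher in cells led by Cst6 than in those led by Defb6, but not all kept this order. Sprr1b, taken up below, was at 0.783 CPM against 2.93 CPM in the control library. Over cells led by Defb6, 84 of 6785 genes were 4-fold higher in both libraries (1.24%) and 26 lower (0.383%). Klk7 was at 2538 and 3196 CPM in cells led by Cst6, 528 and 559 CPM in cells led by Defb6 and 717 and 744 CPM in cells led by Krt79. Klk6 was at 163 and 273 CPM, 2.20 and 11.1 CPM, and 1.15 and 8.02 CPM in the same order, but 5 cells held 54.5% and 49.7% of its UMIs over all chosen cells. Cdsn was at 609 and 502 CPM in the first group and at 57.8 and 3.49 CPM in the second. Tgm1 was at 254 and 173 CPM against 24.4 and 9.32 CPM, and Spink5 at 1136 and 882 CPM against 166 and 60.9 CPM. Gsdma was at 254 and 200 CPM against 24.9 and 10.2 CPM. After thinning, Klk7 was seen in 79.9% and 75.4% of cells led by Cst6 and in 24.9% and 25.1% of those led by Defb6.

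Cells led by Defb6 held more basal transcripts. The 16 basal genes summed to 10630 and 10966 CPM in them and to 5997 and 6757 CPM in cells led by Krt79. The sum was 3232 and 4896 CPM in cells led by Cst6. In other keratinocytes, which were chosen on Krt5 and Krt14, it was 26493 and 26221 CPM. Krt5 was at 1615 and 1581 CPM, 620 and 770 CPM, and 442 and 605 CPM in the same order. The chemokine Ccl2 was at 1470 and 1207 CPM in cells led by Defb6 and at 309 and 260 CPM in those led by Cst6. Ccl1 was at 74.7 and 58.8 CPM against 1.17 and 0 CPM, but 5 cells held 91.0% and 92.6% of its UMIs over all chosen cells. For Ccl7, at 243 and 142 CPM against 12.5 and 9.69 CPM, these shares were 47.1% and 57.2%. Mki67 was at 10.0 and 11.4 CPM against 0 UMIs in both libraries in cells led by Cst6, but 5 cells held most of its UMIs over all chosen cells. Gata6 differed less, at 72.5 and 91.7 CPM in cells led by Defb6 and 66.6 and 91.2 CPM in those led by Cst6.

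Cells led by Krt79 shared part of each pattern. Over cells led by Defb6, 26 of 6361 genes were higher (0.409%) and 9 lower (0.141%). Sprr1b, an envelope precursor, was at 151 and 70.0 CPM in them, against 2.93 and 0.874 CPM in cells led by Defb6 and 0.783 and 6.68 CPM in those led by Cst6, and 5 cells held 83.7% and 84.0% of its UMIs over all chosen cells. Slc5a8 was at 161 and 70.0 CPM against 5.12 and 2.33 CPM in cells led by Defb6. Plin2, a coat protein of lipid droplets, was at 299 and 166 CPM against 92.2 and 112 CPM, and Scd1, a fatty acid desaturase abundant in sebaceous cells, at 55.3 and 38.7 CPM against 17.3 and 16.0 CPM. The whole sebaceous list did not keep this order, since it summed to 2236 and 1858 CPM in cells led by Krt79 and to 1986 and 2388 CPM in cells led by Defb6. Klk10 was at 1.73 and 2.92 CPM against 660 and 414 CPM in cells led by Cst6, but 5 cells held most of its control UMIs over all chosen cells. Cst6 over Krt79 cells gave 60 higher (1.05%) and 7 lower (0.123%) of 5688 genes.

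Across single cells thinned to 5000 UMIs, the choosing genes varied together. Spearman's rho between Defb6 and Cst6 was 0.69 over 572 control and 0.70 over 498 induced cells, between Krt79 and Cst6 0.65 and 0.64, and between Krt79 and Defb6 0.51 and 0.52. The choice itself bears on these values, and the cells of a library are not replicates. Among 2441 genes seen in at least 20% of cells, the 5 most like Krt79 were Ly6g6c (0.76 and 0.75), Fam25c (0.69 and 0.67), Sprr1a (0.65 and 0.65), Cst6 and Sbsn (0.66 and 0.63). Those most like Defb6 were Cst6, Cstb (0.59 and 0.63), Ly6g6c (0.59 and 0.60), Dbi and Calml3. Those most like Cst6 were Ly6g6c (0.82 and 0.81), Sbsn (0.75 and 0.79), Defb6, Sprr1a and Mxd1 (0.63 and 0.66), a partner of Max that opposes Myc. The lowest for Krt79 included Krt5 (-0.67 and -0.70) and Col17a1 (-0.53 and -0.58), and the lowest for Cst6 included the ribosomal gene Rpl12 (-0.69 and -0.59) and Eef1a1 (-0.64 and -0.65), a translation elongation factor.

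The share of upper follicle cells was close in the libraries. It was 15.04% (13.9 to 16.2) of control and 14.3% (13.1 to 15.4) of induced cells, a difference of -0.790 percentage points with a Newcombe interval of -2.38 to 0.808. The sort fixed part of these shares. The choosing genes and Klk7 moved by less than 2-fold in summed level. Krt79 went from 6697 to 6132 CPM (log2 ratio -0.13), Defb6 from 14507 to 12248 CPM (-0.24), Cst6 from 23408 to 26901 CPM (0.20) and Klk7 from 1179 to 1604 CPM (0.44). Of 12 upper follicle genes 0 passed 2-fold in either direction, with a median log2 ratio of 0.00 beside 0.03 over all 8993 genes with at least 50 UMIs. The basal list likewise had 0 of 16 past 2-fold and a median of 0.10.

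Of the 8993 genes, 164 were at least 2-fold higher (1.82%) and 76 lower (0.845%) in the induced library. The same comparison in other keratinocytes gave 231 higher (2.07%) and 128 lower (1.15%) of 11136 genes, and in suprabasal cells 94 higher (1.46%) and 41 lower (0.638%) of 6424. In the chosen cells the interferon and antigen presentation list had 12 of 26 genes higher, 0 lower and a median of 0.89. By leading gene, 11 of 25 were higher in cells led by Defb6 (median 0.91), 10 of 23 in those led by Cst6 (0.80) and 3 of 19, with 1 lower, in those led by Krt79 (0.05), and the difference between these groups was not tested. Other keratinocytes had 8 of 27 higher and 4 lower, with a median of 0.36. Suprabasal cells had 4 of 22 higher and 0 lower, with a median of 0.40. Without the 5 highest cells of each gene, the median in the chosen cells was 0.33. Ifi27l2a, an interferon-induced gene, rose from 73 to 2686 UMIs, or from 8.70 to 344 CPM, a log2 ratio of 5.30 (4.97 to 5.66). The rise was spread over cells. A UMI was seen in 2.62% (1.47 to 4.29) of thinned control cells and 36.1% (31.9 to 40.5) of thinned induced cells, against 5.07% and 48.0% unthinned. In fibroblasts it was 1 of 98 and 5 of 129 thinned cells. By leading gene, the thinned induced share was 45.4% for Cst6, 30.3% for Defb6 and 32.1% for Krt79.

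Other interferon-induced genes were higher with it. Bst2, tetherin, which holds budding viruses at the membrane, went from 32 to 360 UMIs, a log2 ratio of 3.58. Rtp4 went from 6 to 101 UMIs (4.07), Irf7, the transcription factor that amplifies interferon genes, from 21 to 91 (2.20), Isg15, a ubiquitin-like modifier, from 74 to 249 (1.85) and Stat2 from 28 to 64 (1.28). Without the 5 highest cells of each library, the ratios of Bst2 and Isg15 were 3.52 and 1.82. Bst2 was seen in 2.10% and 12.4% of thinned cells and Isg15 in 4.02% and 10.4%. In fibroblasts these genes were seen more often in both libraries, Bst2 in 22.4% and 38.8%, so fibroblasts give no background for them. These genes were also higher in other keratinocytes, with log2 ratios of 2.63 for Ifi27l2a, 2.05 for Bst2 and 1.79 for Isg15.

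**Figure D4:**
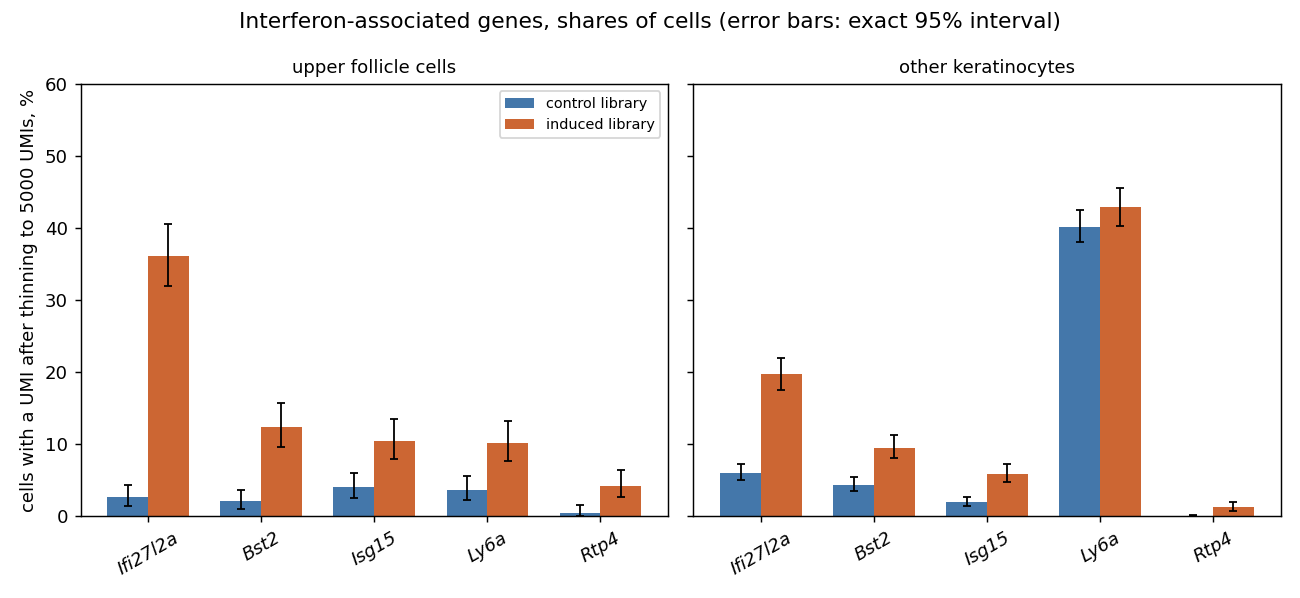
Share of cells (%) with a UMI of 5 genes after thinning to 5000 UMIs, in upper follicle cells and other keratinocytes of each library, with exact 95% intervals. Ifi27l2a reaches 36.1% of induced upper follicle cells against 2.62% in the control, and 19.7% against 6.05% of other keratinocytes.

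The class II genes on that list lay in few cells. Cd74, H2-Aa, H2-Ab1 and H2-Eb1 had log2 ratios of 1.51, 1.35, 1.44 and 1.39, but 5 cells held 76.3% to 85.4% of their induced UMIs. They moved with Cd207, which defines Langerhans cells and went from 106 to 342 UMIs, with a UMI in 30 control and 37 induced cells. The Langerhans list had 7 of 9 genes higher with all cells and 2 of 6 without the 5 highest cells of each gene. The part of admixed cells in these values was not tested. Ly6c1 on the interferon list had 95.5% of its induced UMIs in 5 cells. Without the 5 highest cells, 8 of 25 genes of that list were higher.

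Ear2, a ribonuclease of the eosinophil-associated family, had 0 UMIs in the control cells and 335 in the induced cells. With 3 counts set in place of 0 for the 592 control cells together, the induced level was 120.1-fold higher. The exact interval used for the other ratios had a lower end of 6.60 on the log2 scale, which is less than this. The 335 UMIs lay in 26 induced cells, with 52.2% of them in 5 cells, so the ratio rests largely on those. By leading gene, 21 of the 26 were led by Cst6, 5 by Defb6 and 0 by Krt79. Across all kept cells the counts were 5 in the control and 396 in the induced library. The near-identical family to which Ear2 belongs makes the assignment of its reads uncertain.

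Some genes moved across whole libraries. The pseudogene Gm8797 went from 156 to 3274 UMIs, with a log2 ratio of 4.49 here and 4.62 in other keratinocytes. Gm10093, listed by RefSeq as a pseudogene of Hdac1, went from 222 to 4 UMIs (-5.52) and had a log2 ratio of -7.29 in other keratinocytes. Hdac1 itself was at 210 and 415 UMIs (1.09). Pseudogenes can share reads with their parents, so these counts are uncertain. Eva1a, a membrane protein of autophagy and cell death, was at 372 and 35 UMIs, or 44.3 and 4.49 CPM, and at 135 and 20.5 CPM in other keratinocytes. Gstm2, a glutathione transferase, went from 829 to 343 UMIs (-1.17), and its ratio in other keratinocytes was -1.12.

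Of the serine proteases 3, and the protease Asprv1, were higher in the induced cells. Asprv1, an aspartic protease that processes filaggrin, went from 3344 to 7153 UMIs, a log2 ratio of 1.20 (1.14 to 1.26), and was seen in 36.3% and 48.9% of cells before thinning. It stood at 809 and 2108 CPM in cells led by Cst6, at 210 and 96.1 CPM in those led by Defb6 and at 241 and 376 CPM in those led by Krt79, so the direction differed between the groups. Klk6 went from 426 to 865 UMIs (1.13), Prss22 from 339 to 667 (1.08) and Prss27 from 23 to 52 (1.27, with 69.6% of its control UMIs in 5 cells), while 0 of 19 members of that list were lower. Within cells led by Cst6 alone, 0 of 16 passed 2-fold, and these cells were 30.4% of control and 37.7% of induced cells. Asprv1 was also higher in suprabasal cells, at 459 and 1093 CPM, and in other keratinocytes, at 11.3 and 21.5 CPM. Klk6 and Prss22 were lower in induced suprabasal cells, at 26.3 and 15.5 CPM and at 147 and 47.6 CPM. Elf3, an epithelial transcription factor, went from 272 to 527 UMIs (1.06), and was seen in 20.9% and 32.5% of cells before thinning. Aldh1a3, which makes retinoic acid, was lower, at 295 and 61 UMIs (-2.16), with 44.4% and 54.1% of them in 5 cells.

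The cornified envelope list had 9 of 25 genes lower and 1 higher in the induced cells, with a median of -0.27, but few cells carried this. Lor, loricrin, was at 5258 UMIs in the control and 124 in the induced library (-5.29), and 5 cells held 98.5% of the control UMIs. Flg, filaggrin, was at 319 and 2 UMIs, all of the control UMIs in 5 cells, Hrnr at 158 and 2, Lce1m at 1403 and 46, and Flg2 at 676 and 38. Without the 5 highest cells of each gene in each library, Lor was at 81 and 30 UMIs (-1.31), Flg at 0 and 0, and Flg2 at 6 and 5, and 3 of 17 genes with enough UMIs were lower. Cnfn, cornifelin, was lower in summed level with and without them, at 1578 and 529 UMIs (-1.47 and -1.52). The share of cells with it was not lower, at 4.72% of thinned control and 5.02% of thinned induced cells. In suprabasal cells its level was higher in the induced library, at 64.7 and 135 CPM. Sprr1a (-0.07), seen in 89.9% of control cells before thinning, stayed inside 2-fold, as did Tgm1 (-0.37), seen in 26.5%, and Cdsn (-0.23), seen in 23.0%, both before thinning. By leading gene the list had 12 of 21 genes lower in cells led by Defb6, 3 of 19 in those led by Cst6 and 3 of 14 in those led by Krt79. Flg, Flg2, Hrnr and Lor had log2 ratios of -4.19, -4.94, -3.44 and -0.77 in other keratinocytes and of 3.55, 6.10, 0.67 and 3.88 in suprabasal cells, so the direction differed between these populations. For some of these genes the ratios rest on few cells or counts there too. Flg was at 135 and 5 UMIs in other keratinocytes, with a UMI in 0.157% of control cells before thinning. In suprabasal cells Flg was at 1 and 17 UMIs and Flg2 at 2 and 170.

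Fibroblast genes were the largest group among the 10 highest ratios and also came from few cells. Col1a1 was at 43 and 1718 UMIs, Col1a2 at 55 and 1758, Col3a1 at 39 and 950, Dcn at 34 and 1099 and Sparc at 78 and 1162. Of the 6838 UMIs of the 8 fibroblast genes in induced cells, 6639 lay in 5 cells, and 3 induced cells also met the count rule for fibroblasts. Without the 5 highest cells the log2 ratios were 0.02, -0.46, 0.11, -0.20 and 0.15 in the same order. Serping1 (2 and 128 UMIs) had 94.5% of its induced UMIs in 5 cells. The T cell list was at 39 and 51 UMIs, the melanocyte list at 121 and 132 and the endothelial list at 17 and 16. At least 3 UMIs of these other lineages were found in 28 of 592 control and 34 of 517 induced cells.

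**Figure D5:**
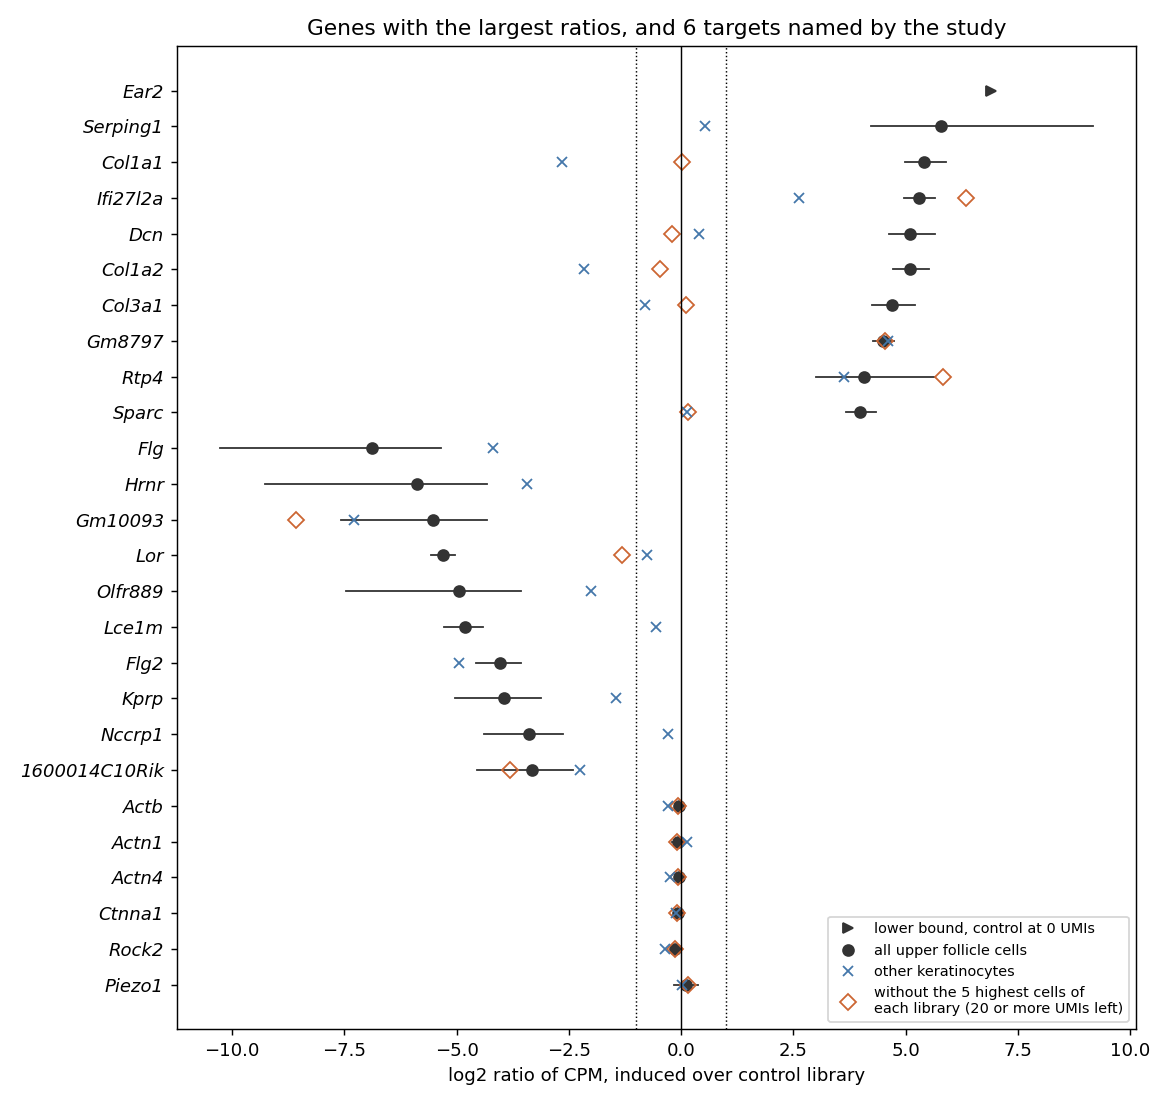
Log2 ratio of CPM, induced over control, for the 10 highest, the 10 lowest and 6 target genes in upper follicle cells (points with exact intervals), without the 5 highest cells (diamonds) and in other keratinocytes (crosses). Ear2 is drawn at its ratio with 3 counts used in place of 0 in the control. The 3 collagen genes lie within -0.46 to 0.11 without the 5 highest cells, and the 6 targets lie within -0.12 to 0.11.

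The study asked how induced miR-205 acts on the actin cytoskeleton, and named 6 targets out of a larger set that it captured bound to miR-205. In the upper follicle cells Actb, the main cytoplasmic actin, was at 5461 and 5254 CPM, a log2 ratio of -0.06 (-0.08 to -0.04). Actn1 and Actn4, which cross-link actin, were at 144 and 136 CPM (-0.08) and at 308 and 298 CPM (-0.05). Ctnna1, which ties cadherins to actin, was at 253 and 240 CPM (-0.07, interval -0.16 to 0.02), and Rock2, a kinase of contractility, at 241 and 221 CPM (-0.12, interval -0.22 to -0.03). Piezo1, a stretch-gated channel, was at 29.6 and 31.9 CPM (0.11, interval -0.15 to 0.37). None of the 6 passed 2-fold, and their median was -0.06 beside 0.03 over all genes. The 2-fold mark is a rule of this report. The paper describes the fall of each target transcript as mild, and reported it for these 6 in hair follicle stem cells. In other keratinocytes the log2 ratios were -0.30 for Actb, 0.14 for Actn1, -0.24 for Actn4, -0.11 for Ctnna1, -0.36 for Rock2 and 0.01 for Piezo1, and the difference between the populations was not tested.

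Of 58 actomyosin and adhesion genes, 0 passed 2-fold in either direction, with a median of -0.07. Actg1 went from 9110 to 8137 CPM (-0.16), Tmsb4x, which binds free actin, from 3214 to 2837 CPM (-0.18), and the myosin light chains Myl6 and Myl12a had ratios of -0.14 and -0.15. Pfn1 (0.10) and Cdh1 (0.10) went the other way. Within cells led by Cst6 the list's median was 0.08, and within those led by Defb6 -0.09. Genes with the seed's 7-base complement in their longest annotated 3′ UTR, taken from the GENCODE M1 transcripts and matched by gene identifier, numbered 1048 of the 8993. Their median log2 ratio was 0.05, against 0.03 for the 7656 genes without it. Of those with the site, 18 were 2-fold higher and 5 lower, and of those without it 141 and 62. In other keratinocytes the order of the medians was the opposite, at 0.01 for 1269 genes with the site and 0.04 for 9388 without it. Their UTRs were longer, with a median of 2434 bases against 1056.5, and the part of UTR length was not tested.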

How the data were processed

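Single-cell RNA-seq libraries (10x Genomics) from back skin of 1 control and 1 miR-205-induced mouse were counted by the authors with Cell Ranger against mm10, per the submitters' processing notes, and the deposited matrices hold raw UMI counts per gene and barcode, 1 matrix for each library. Per the paper's methods the counting was of transcript 3′ ends. The counts were not batch corrected, and no cell annotation was used.

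Cells with more than 200 and fewer than 5000 genes, a filter taken from the paper's methods, and under 10% mitochondrial UMIs were kept. The upper follicle cells and the other populations were gated on raw UMIs as stated in the report, and counts were summed for each population and library and divided by that population's total (CPM). Log2 ratios used a pseudocount of 0.5 UMIs and a minimum of 50 UMIs for a gene, summed over the libraries or, between populations, within each library. Exact intervals (binomial, or Poisson conditioned on the sum) were 95%, and the difference of shares had a Newcombe interval. Members and gene lists were chosen with earlier results of these data known. Shares of cells were taken after thinning to 5000 UMIs unless given as unthinned or before thinning, and 20 control and 19 induced cells were too shallow to be thinned. The split by leading gene gave ties to the gene named first.

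Named genes were the choosing and marker genes, the 20 highest and 10 lowest ratios to other keratinocytes (at least 200 UMIs), the 10 highest and 10 lowest induced over control ratios (at least 100 UMIs, without mitochondrial, ribosomal and haemoglobin genes), the 6 targets, list members past the threshold with others of high counts, and the 5 genes most like each choosing gene. Genes of the split by leading gene, Eva1a and the genes set beside a group were named after their values were seen. Scrublet's own threshold marked 4 and 5 barcodes, too few to have worked, so doublets were kept and the 165 and 145 highest scores were left out only as an alternative. The split by leading gene was a planned description, while the promoter motifs and seed sites were searched after the expression values were seen. Of the gene lists, 5 symbols could not be matched. The ratio calculation was tested on simulated data. Python 3.11.15, numpy 2.4.6, scipy 1.17.1, pandas 2.3.3 and scanpy 1.11.5 were used.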

Additional observations from a re-analysis of the deposited data

Results flagged for a closer look

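Collagen genes moved one way in the upper follicle cells and the other way in other keratinocytes of the same 2 libraries. The log2 ratio of induced over control was 5.41 for Col1a1, 5.09 for Col1a2 and 4.69 for Col3a1 in the upper follicle cells, and -2.66, -2.16 and -0.80 in other keratinocytes. With 1 library for each condition the difference was not tested, and 5 cells held 96.5% to 98.1% of the induced UMIs of these genes in the upper follicle cells.

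A further 27 barcodes of the control library and 26 of the induced library met the count rule of the upper follicle cells but failed the limits on detected genes or mitochondrial UMIs, and entered no comparison. Of these, 9 and 4 were above the gene limit and 18 and 22 were above the mitochondrial limit.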

How the results depend on the processing

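No paired analysis was possible because each condition has 1 library. Over 94 results and 15 alternatives, 1150 values were recomputed, of which 10 changed direction. The 2 alternatives that left out the 5 highest cells of each gene or the cells led by Cst6 were chosen after seeing the data. Without the highest Scrublet scores the log2 ratio was -0.082 for Col1a1, -0.43 for Dcn, -0.45 for Col1a2 and -0.014 for Col3a1. Without cells that held markers of other lineages it was -0.22 for Col1a1, -0.37 for Dcn, -0.84 for Col1a2 and -0.58 for Sparc. Without the 5 highest cells it was -0.20 for Dcn and -0.46 for Col1a2. The share of upper follicle cells was 20.6% in both libraries under 5% mitochondrial UMIs, 13.0% and 12.4% when the choosing sum was 40, and 17.5% and 17.1% when it was 10. Genes 4-fold lower than in other keratinocytes numbered 212 at the sum of 10 and 173 at a minimum of 200 UMIs. Genes 2-fold higher and lower in induced cells numbered 365 and 152 at a minimum of 20 UMIs, 49 and 28 at 200, and 78 and 26 after thinning. The higher genes numbered 102 without other lineages and 88 without the 5 highest cells, where genes left with under 50 UMIs also dropped out, and of the 164 higher genes 125 kept a 2-fold ratio. The median of the actomyosin list was -0.10 with median-of-ratios scaling and -0.10 without cells led by Cst6, that of the cornified envelope list -0.054 as a mean over cells and -0.024 after thinning, and that of barrier lipids -0.30 without cells led by Cst6. The cause of these shifts was not tested beyond the cells left out. Low counts limit genes with few UMIs, where the interval of a ratio spans several log2 units, and no interval covers differences between mice.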
